A study of Homo sapiens with 8 samples.

Results

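The 7 RNAs described here are cut from the start of the plus-strand transcript of the human mitochondrial genome: the tRNA for phenylalanine MT-TF, the 12S rRNA MT-RNR1, the tRNA for valine MT-TV, the 16S rRNA MT-RNR2, and the tRNAs that follow, MT-TL1 (leucine), MT-TI (isoleucine) and MT-TM (methionine). They were chosen by symbol and position, as the plus-strand RNAs nearest the promoters, and are 7 of 2709 features counted in each library and 7 of the 24 mitochondrial RNAs with an entry. Small RNA was sequenced from exosomes, vesicles pelleted from the culture supernatant of MEC-1 (n = 5 libraries), and from MEC-1 cells (n = 3). MEC-1 is a B-cell line from chronic lymphocytic leukaemia (CLL), all 8 libraries come from it, and no treatment separates them. The line was grown in bioreactors for exosome production, with serum whose own exosomes were spun out beforehand, except in the upper medium compartment. All RNA was prepared to be under 200 nt. The design states that 3 of the 5 exosome samples have matching cell samples without naming them, and the tests treat the 8 libraries as unpaired.

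Mitochondria transcribe their circular genome from both strands into long precursors. Most tRNAs lie between rRNA and messenger sequences like punctuation, and RNase P and ELAC2 cut at their 5′ and 3′ ends, which frees the RNAs in between. MT-RNR1 and MT-RNR2 are the RNA cores of the small and large mitochondrial ribosome subunits, and the tRNAs decode the respiratory-chain messages on that ribosome. The transcription termination factor MTERF1 binds within the MT-TL1 gene, just after the rRNAs. MT-TF stands at the start of the unit, and its 3′ cut marks the first base of MT-RNR1.

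The sequences show how the unit is laid out and where its junctions are. They are transcript sequences of GENCODE release 29 (GRCh38), written as DNA, and were used because the start, end and strand of all 24 mitochondrial RNAs in that release equal those in the deposited GRCh37 tables. The 5 tRNAs are printed from 5′ to 3′ with the anticodon in capitals, found as the known triplet in a 7-base loop closed by at least 4 pairs of a 5-pair stem.
MT-TF: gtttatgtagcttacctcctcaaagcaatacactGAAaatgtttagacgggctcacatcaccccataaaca
MT-TV: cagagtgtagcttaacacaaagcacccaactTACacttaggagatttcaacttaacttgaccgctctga
MT-TL1: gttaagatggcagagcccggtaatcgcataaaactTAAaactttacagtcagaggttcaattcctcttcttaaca
MT-TI: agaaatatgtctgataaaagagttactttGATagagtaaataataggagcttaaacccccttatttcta
MT-TM: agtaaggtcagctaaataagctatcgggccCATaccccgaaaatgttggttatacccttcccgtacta
The rRNAs are longer, so their first and last 30 bases are given, which meet the ends of the tRNAs above.
MT-RNR1 first: aataggtttggtcctagcctttctattagc
MT-RNR1 last: aagtgtactggaaagtgcacttggacgaac
MT-RNR2 first: gctaaacctagccccaaacccactccacct
MT-RNR2 last: tatacccacacccacccaagaacagggttt

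On the mitochondrial genome (M, plus strand, GRCh37), MT-TF spans 577 to 647, MT-RNR1 648 to 1601, MT-TV 1602 to 1670, MT-RNR2 1671 to 3229 and MT-TL1 3230 to 3304, with no base between neighbours. MT-TI (4263 to 4331) and MT-TM (4402 to 4469) lie on the far side of MT-ND1, a messenger gene not analysed here. The tRNAs are 68 to 75 nt long, while MT-RNR1 (954 nt) and MT-RNR2 (1559 nt) are longer than the 200 nt limit of the RNA taken in, and what was read of them is fragments. GC content was lowest in MT-TI and highest in MT-TM (45.6%), with MT-RNR1 at 45.5% and MT-RNR2 at 42.8%. MT-TI shares 3 bases with MT-TQ on the minus strand, and no source used here gives the strand setting of the counting. Feature 23560, which has a number in place of a symbol, repeats the interval of MT-TL1 and has the same count in 8 of 8 libraries, so a read on both features was entered at each.

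Libraries held 23353820 to 32436286 counts in exosomes and 25675636 to 57323598 in cells, with no statement that each library had a culture of its own; the spread behind every p-value may therefore be technical. A few libraries stood apart in their mitochondrial reads. The 24 mitochondrial RNAs made up 1.04% to 8.71% of all exosome counts, with exosome 3 the highest and exosome 2 (4.76%) next, and 0.705% to 1.51% of all cell counts. In cell 2, MT-TF alone made up 84.0% of the reads of the 7 RNAs. As checks of the labels, the 3 miRNAs of a B-cell list with an entry (MIR150, MIR21, MIR181A1) summed to 6354 to 18256 CPM (counts scaled by TMM library sizes) in exosomes and 12970.3 to 27145 CPM in cells. MIR155 and MIR142 of that list had no entry, and the 3 summed are not shown here to be particular to B cells. The nuclear RNAs RN7SK, SNORD101 and RNU6-1 summed to 490.03 to 846 CPM in exosomes and 46914 to 72046 CPM in cells. MIR122, a liver miRNA, was at 19.9 to 114 CPM in exosomes and 0.424 to 2.00 CPM in cells. Stromal miRNAs (2 of 3 with an entry) summed to 3.68 to 28.2 CPM in exosomes and 0.713 to 1.21 CPM in cells, highest in exosome 3. MIR126, a miRNA of endothelium and platelets, was at 10.1 to 53.7 CPM in exosomes, highest in exosomes 3 and 2, and at 1.20 to 6.30 CPM in cells. MIR203, of skin epithelium, was at 0.285 to 4.40 CPM in exosomes and 0 to 0.165 CPM in cells. The groups overlapped for MIR486 of red cells, at 22.4 to 88.3 CPM in exosomes and 9.47 to 51.7 CPM in cells. They also overlapped for MIR223 of myeloid cells (0.616 to 7.64, 0.0665 to 5.32) and MIR9-1 of neural cells (3.64 to 26.7, 23.4 to 45.7). RNY1, RNY3, RNY4, RNY5 and VTRNA1-1, cytoplasmic RNAs, summed to 109328 to 204698 CPM in exosomes and 11917 to 15081 CPM in cells. The part of these markers in the results below was not tested.

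Both mitochondrial rRNAs had higher mean levels in exosomes, and the rise of MT-RNR2 passed the test. MT-RNR2 had 2115, 12476, 11076, 3646 and 5644 CPM in exosomes 1 to 5, against 1672, 731 and 2874 CPM in cells 1 to 3. Exosomes 2 and 3 were highest, cell 2 was lowest, and the groups overlapped because exosome 1 lay below cell 3. The mean of MT-RNR2 was 6991 ± 4570.2 CPM over the exosome libraries and 1759 ± 1074 CPM over the cell libraries (SD), a log2 fold change of 1.99 (SE 0.69, adjusted p = 0.0283, edgeR's quasi-likelihood test with Benjamini-Hochberg adjustment). Between all exosome and cell libraries, 42.8% of 1178 tested features were called, with 20.5% higher and 22.3% lower; of the 7 RNAs, all of which passed the low-count filter, 1 was called, and it was higher. In bulk libraries, more vesicles or cells holding an RNA, more of it in each and less of the other RNAs counted cannot be told apart.

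The MT-RNR2 call rested on several libraries. Leaving out exosome 2 ended it (log2 fold change 1.70, adjusted p = 0.0574), as did leaving out cell 1 (1.86, adjusted p = 0.0849) or cell 2 (1.56, adjusted p = 0.113), in the same edgeR test. Without cell 3 its log2 fold change was 2.84, and without exosomes 2 and 3 together it was 1.03 (adjusted p = 0.216), a setting chosen after seeing the data.

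MT-RNR1 had 1654, 11452, 7200.0, 2111 and 5181 CPM in exosomes 1 to 5, against 1529, 475 and 2686 CPM in cells 1 to 3. Exosomes 1 and 4 lay below cell 3, so the groups overlapped here too. MT-RNR1 was at a log2 fold change of 1.82 (SE 0.73, 95% interval 0.27 to 3.37), and its adjusted p of 0.0551 in edgeR's test missed the threshold. It passed in 11 of 21 alternative settings, with adjusted p from 0.0105 to 0.62 over all of them. It passed by total count scaling (adjusted p = 0.0397), where 36.3% of all features were called, and with DESeq2 (adjusted p = 0.0166), where 48.3% were; over the 21 alternatives 27.2% to 49.9% of features were called. Single libraries whose removal brought MT-RNR1 past the threshold in edgeR were exosome 1 (2.15, adjusted p = 0.0328), exosome 3 (2.00, adjusted p = 0.0348), exosome 4 (2.33, adjusted p = 0.0232) and cell 3 (2.75, adjusted p = 0.0377). Without exosomes 2 and 3 together its log2 value was 0.82.

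Each library held 1.09 to 1.73 reads of MT-RNR2 per read of MT-RNR1 in exosomes and 1.07 to 1.54 in cells. Per length, this is 0.667 to 1.06 in exosomes and 0.655 to 0.942 in cells. The ranges of the groups overlapped.

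**Figure D1:**
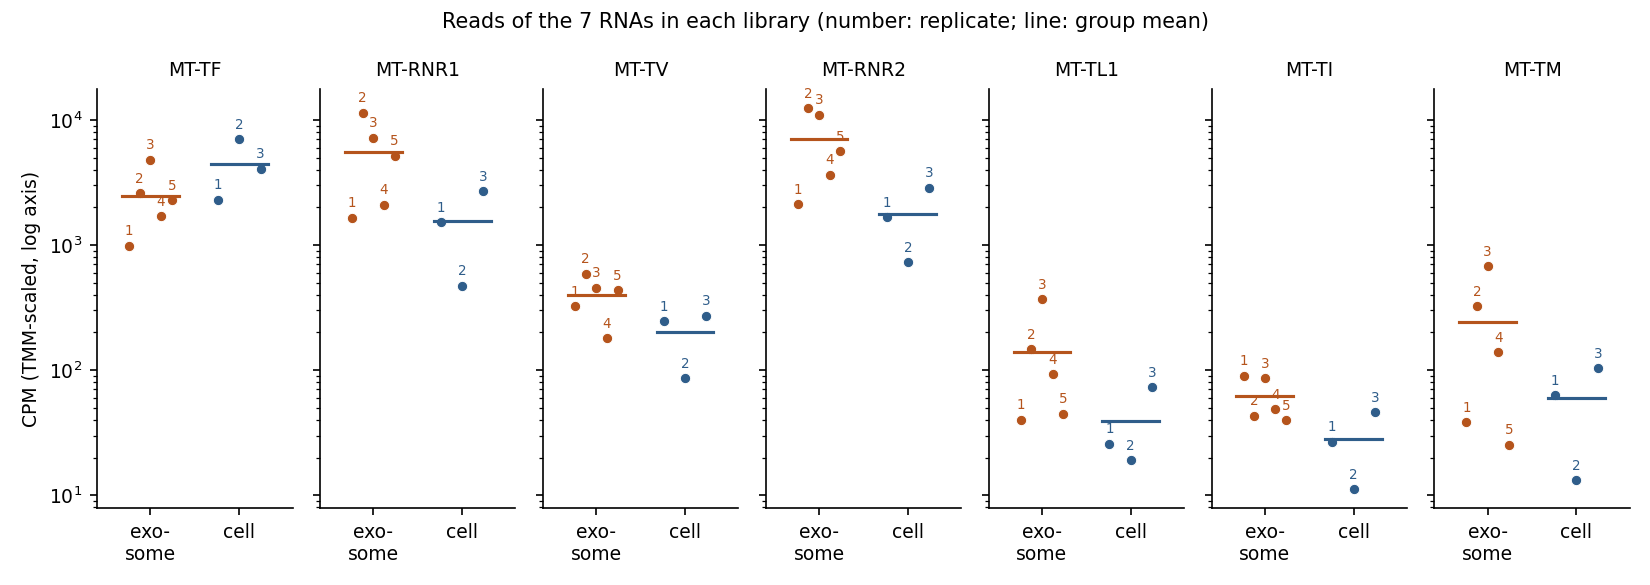
CPM (TMM-scaled counts, log axis) of the 7 RNAs in each library, exosomes left and cells right in each panel; points are libraries with their replicate number and lines are group means. Exosome points overlap cell points in every panel, MT-RNR2 spans 2115 to 12476 CPM in exosomes, and MT-TF is the one panel with a lower exosome mean.

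MT-TF, the tRNA that opens the unit, had the only fold change below 0 among the 7. It had 989, 2609.5, 4819, 1704 and 2283 CPM in exosomes 1 to 5, against 2313, 7016 and 4079 CPM in cells 1 to 3. In CPM, exosome 1 was lowest, cell 2 was highest, and exosomes 2 and 3 lay above cell 1. This order also depends on the TMM factors, where a smaller factor raises the CPM of a library. The factors were 1.21 for exosome 1, 0.52 for exosome 5, 1.42 for cell 1 and 0.55 for cell 2. The mean of MT-TF was 2481 ± 1445 CPM over the exosome libraries and 4469 ± 2376 CPM over the cell libraries (SD), a log2 fold change of -0.85 (SE 0.57, 95% interval -2.05 to 0.35) that was not called (adjusted p = 0.245, edgeR). By total count scaling the log2 fold change of MT-TF was -0.32 (adjusted p = 0.744, edgeR).

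The mitochondrial reads are here those of the 24 tRNAs and rRNAs, as no mitochondrial messenger RNA has an entry. Among these reads, MT-TF took a smaller share in every exosome library. Its share was 9.40%, 5.95%, 7.78%, 9.01% and 11.5% in exosomes 1 to 5, against 25.3%, 54.9% and 24.4% in cells 1 to 3. The groups did not overlap, and cell 2 lay far above the other cells. By share of mitochondrial reads the groups were apart for 2 of the 24 RNAs (8.33%): MT-TF, lower in exosomes, and MT-TE, the glutamate tRNA, higher, with 19.4% to 44.1% in exosomes and 10.7% to 18.0% in cells. Shares of 1 total are tied, so those of MT-TF and MT-TE are not independent. The part of MT-TE in the lower share of MT-TF was not tested. When each library was scaled to its mitochondrial reads instead of all reads, MT-TF fell by 2.00 on the log2 scale (SE 0.81, adjusted p = 0.0421, edgeR over all features); it was the only one of the 24 mitochondrial RNAs called in that setting, where 34.0% of all features were called and 26.4% were called lower. MT-TF is itself part of the total used for that scaling, and over its 21 alternatives the adjusted p ran from 0.0421 to 0.744. On that scale MT-RNR1 was at 0.57 (adjusted p = 0.62) and MT-RNR2 at 0.73 (adjusted p = 0.522), and MT-TV, above 0 by the other scalings, was at -0.011.

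**Figure D2:**
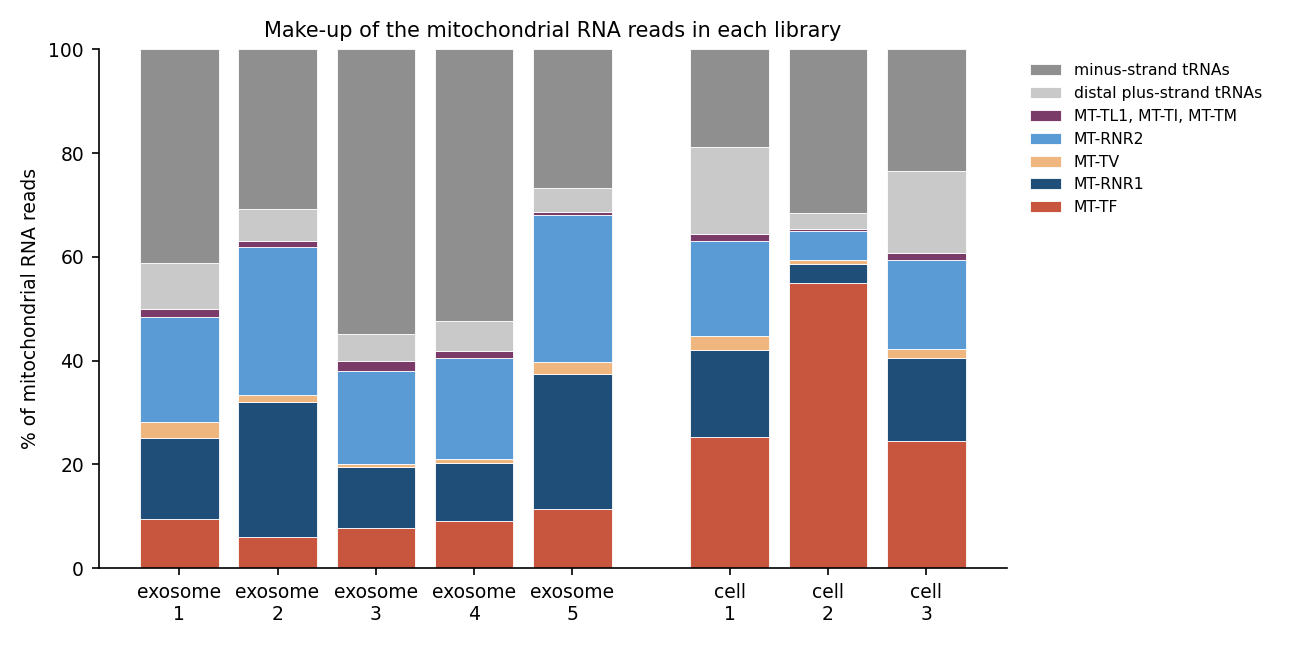
Share of each library's mitochondrial RNA reads (%, stacked to 100) taken by the 7 RNAs and by the other mitochondrial tRNAs, for exosomes 1 to 5 and cells 1 to 3. MT-TF at the base of the bars takes 5.95% to 11.5% in exosomes and 24.4% to 54.9% in cells, and fills most of the bar of cell 2 alone.

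The 7 RNAs together held 39.9% to 68.6% of mitochondrial reads in exosomes and 60.7% to 65.4% in cells. MT-RNR2 took 20.1%, 28.4%, 17.9%, 19.3% and 28.4% in exosomes 1 to 5, against 18.3%, 5.72% and 17.2% in cells 1 to 3. MT-RNR1 took 15.7%, 26.1%, 11.6%, 11.2% and 26.0% in exosomes, against 16.7%, 3.72% and 16.1% in cells. Cell 2 had the lowest share of both rRNAs. The 2 rRNAs summed to 29.5% to 54.5% in exosomes and 9.44% to 35.1% in cells, which overlap. The 5 tRNAs summed to 8.46% to 14.2% in exosomes and 27.4% to 55.9% in cells, which do not overlap. MT-TF supplied most of the tRNA reads in each cell library. By share, the groups overlapped for each of MT-TV, MT-TL1, MT-TI and MT-TM.

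MT-TV, the tRNA between the rRNAs, is also known as a structural part of the mitochondrial large ribosome subunit in human cells. It had 323, 589, 456, 179.9 and 434 CPM in exosomes 1 to 5, against 247, 86.1 and 272 CPM in cells 1 to 3. Exosome 4 lay below cells 1 and 3, and the other exosome libraries lay above all cells. Its log2 fold change of 0.98 (SE 0.57, 95% interval -0.24 to 2.19) was not called (adjusted p = 0.183, edgeR), nor was it in any of 21 alternative settings.

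MT-TL1, which follows the 16S rRNA, had 40.1, 147, 369, 92.3 and 44.8 CPM in exosomes 1 to 5, against 25.9, 19.0 and 72.7 CPM in cells 1 to 3. Exosomes 1 and 5 lay below cell 3 and above the other cells. The log2 fold change of 1.82 (SE 0.77, 95% interval 0.20 to 3.45) missed the threshold (adjusted p = 0.0653, edgeR), and passed in 12 of 21 alternative settings, with adjusted p from 0.0088 to 0.665 over all of them. Removing 1 library brought it past the threshold in edgeR for exosome 1 (2.19, adjusted p = 0.0356), exosome 4 (2.20, adjusted p = 0.0496), exosome 5 (2.07, adjusted p = 0.0321) and cell 3 (2.94, adjusted p = 0.0319). Without exosomes 2 and 3 together its log2 value was 0.61.

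MT-TI had 90.4, 43.4, 85.8, 48.7 and 39.9 CPM in exosomes 1 to 5, against 26.7, 11.2 and 46.0 CPM in cells 1 to 3. Its highest exosome level was 2.26 times its lowest, the smallest such span of the 7. Its log2 fold change was 1.14 (SE 0.59, adjusted p = 0.126, edgeR), and the groups overlapped through exosomes 2 and 5 and cell 3. Without cell 3 it was called (1.98, adjusted p = 0.0371, edgeR), and it was called in 2 of 21 alternative settings.

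MT-TM, whose tRNA serves both initiation and elongation in mitochondria, was the most uneven. It had 38.2, 324, 678, 139 and 25.3 CPM in exosomes 1 to 5, against 63.0, 13.2 and 104 CPM in cells 1 to 3. Exosomes 1 and 5 lay below cells 1 and 3, and the highest exosome library was 26.8 times the lowest. The log2 fold change of 2.00 was the largest of the 7 and had the largest error (SE 0.96, 95% interval -0.028 to 4.04, adjusted p = 0.103, edgeR); without exosomes 2 and 3 together it was 0.18. Without exosome 5 it was called (2.32, adjusted p = 0.0368, edgeR). It was called in 6 of 21 alternative settings, among them DESeq2 (adjusted p = 0.0376), with adjusted p from 0.00424 to 0.877 over all of them.

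Ratios between members within a library do not depend on how libraries are scaled. For MT-RNR1 over MT-TF, which abut, each exosome library held 1.67, 4.39, 1.49, 1.24 and 2.27 reads of the rRNA per read of the tRNA, against 0.661, 0.0677 and 0.658 in cells 1 to 3. Every exosome library lay above every cell library. The mean log2 ratio was 0.99 ± 0.71 in exosomes and -1.69 ± 1.90 in cells, a difference of 2.68 and a ratio 6.43 times as high, with p = 0.0357 in the exact two-sided permutation test, the smallest that 56 splits of 5 against 3 libraries allow, and 0.214 adjusted over the 6 pairs compared. At least 5 of the 6 pairs would have to reach the smallest p for any to pass after adjustment. Without cell 2 the difference was 1.59.

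At the other junctions the groups overlapped. MT-RNR1 over MT-TV ran from 5.12 to 19.5 in exosomes and from 5.52 to 9.89 in cells (log2 difference 0.75, exact permutation p = 0.214, adjusted p = 0.429). MT-RNR2 over MT-TV ran from 6.55 to 24.3 in exosomes and from 6.77 to 10.6 in cells (0.87, exact permutation p = 0.179, adjusted p = 0.429). In both ratios exosomes 2 to 5 lay above all cells and exosome 1 below all cells.

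MT-RNR2 over MT-TL1 ran from 30.0 to 126 in exosomes and from 38.4 to 64.6 in cells (0.34, exact permutation p = 0.571, adjusted p = 0.821). The ratios of MT-TI over MT-TL1 (log2 difference -0.30) and MT-TM over MT-TI (0.22) also overlapped, with exact permutation p = 0.714 and 0.821 (both adjusted p = 0.821), and both turned sign when exosome 3 was left out. MT-TM over MT-TI reached 7.47 in exosome 2 and 7.90 in exosome 3. Exosomes 1, 4 and 5 had 0.423 to 2.86, against 1.18 to 2.36 in cells.

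**Figure D3:**
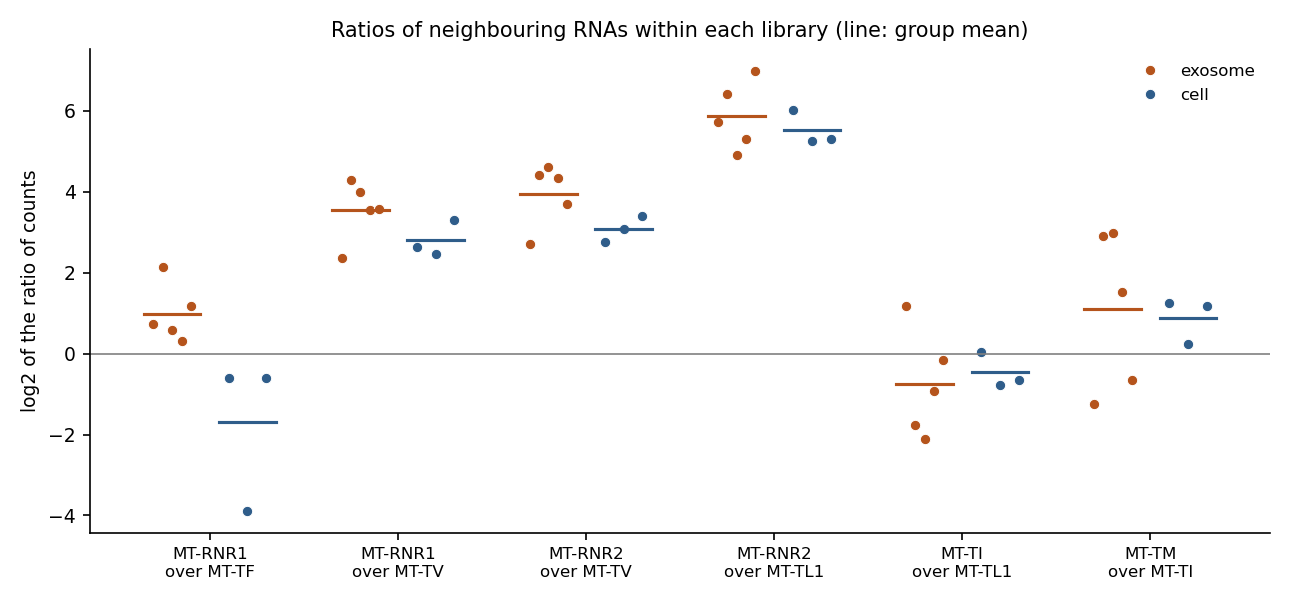
Log2 of the ratio of counts of neighbouring members within each library, exosomes left of cells for each pair; points are libraries and lines are group means. The groups are apart at MT-RNR1 over MT-TF, with counts ratios of 1.24 to 4.39 in exosomes and 0.0677 to 0.661 in cells, and overlap at the other 5 pairs.

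The rRNAs entered only as fragments under 200 nt, yet levels per length divide by their full length. Levels of tRNAs and rRNAs on this scale are therefore not like for like. Per length, MT-TF came first in both groups. Its level was 13923 to 67879 CPM per kb in exosomes and 32579.8 to 98819 CPM per kb in cells, above the next RNA in every library and without overlap with it in either group. In exosomes the means then ran from MT-RNR1 (5786 CPM per kb) and MT-TV (5743) to MT-RNR2 (4484), MT-TM (3543), MT-TL1 (1848) and MT-TI (893). In cells MT-TV (2921 CPM per kb) came before MT-RNR1 (1639), MT-RNR2 (1128), MT-TM (883), MT-TL1 (523) and MT-TI (405). Below MT-TF, the ranges of each neighbouring pair in these orders overlapped. Within single cell libraries, MT-TV lay above MT-RNR1, MT-RNR1 above MT-RNR2 and MT-RNR2 above MT-TM in 3 of 3. Within exosome libraries, MT-RNR1 lay above MT-TV in 2 of 5, and each later member lay above the next in 4 of 5.

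The other 17 mitochondrial RNAs put the 7 in context. The 7 had 6 fold changes above 0, 1 called higher, none lower and a median log2 of 1.82. The 9 distal plus-strand tRNAs, transcribed from the same strand, had 5 above 0, 1 called higher (MT-TT, threonine, adjusted p = 0.0328, edgeR) and a median of 0.37. The 8 minus-strand tRNAs had 7 above 0, 3 called higher (MT-TE, glutamate, 2.43; MT-TA, alanine, 2.10; MT-TQ, glutamine, 1.72) and a median of 1.47. Over all 1178 features, 20.5% were called higher and 22.3% lower, and the median was -0.09. In none of the 7 did the groups separate fully, which 41.7% of all features did (21.6% higher, 20.1% lower), and so did MT-TE, MT-TA and MT-TT among the other mitochondrial RNAs. The difference between these parts was not tested.

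**Figure D4:**
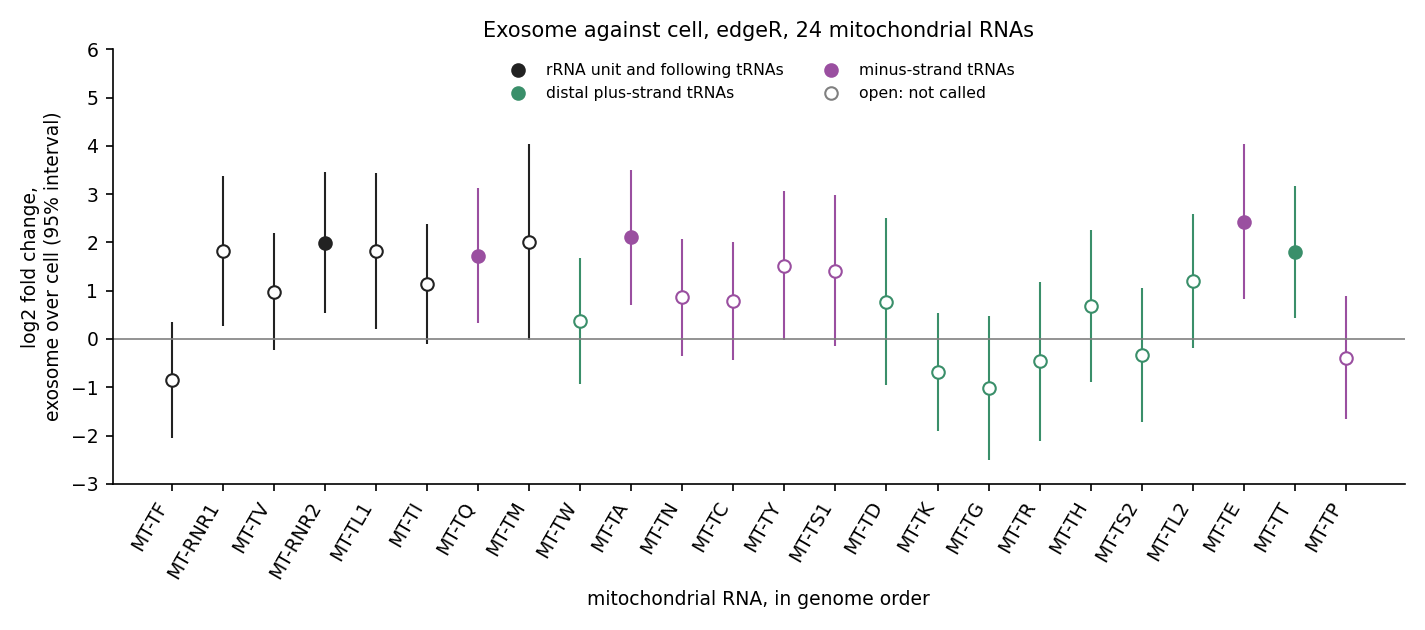
Log2 fold change of exosome over cell with its 95% interval (edgeR) for the 24 mitochondrial RNAs in genome order, filled where called at an adjusted p under 0.05. MT-RNR2 (1.99) is the filled point among the 7, MT-TF (-0.85) is the point below 0 among them, and the distal plus-strand tRNAs have a median of 0.37.

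Of the nuclear-encoded rRNAs of the cytosolic ribosome, RNA18S5 (log2 2.41) and RNA28S5 (1.66) had fold changes of a like size, both called. RNA5-8S5, another of these rRNAs, was the largest feature in cell 1 (16.4% of counts) and cell 2 (19.2%). Its fold change is not given here. MT-RNR1 had 0.055 to 0.162 reads per read of RNA18S5 in exosomes and 0.0397 to 0.349 in cells. Cells 1 (0.266) and 3 (0.349) lay above every exosome library, and cell 2 lay below every one. MT-RNR2 had 0.00575 to 0.067 reads per read of RNA28S5 in exosomes, highest in exosomes 2 and 3, and 0.00659 to 0.0197 in cells. The groups overlapped in both ratios.

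Across the 8 libraries, after each group's mean was taken out of the log2 CPM, MT-RNR1 was most like MT-RNR2 (Pearson r = 0.98) among 712 features with a mean of at least 100 counts. Among features without a mitochondrial symbol its nearest were MIR4461 (0.97), SNORA84 (0.94) and SNORD85 (0.92). MT-RNR2 was most like MT-TL2 (0.99), and outside the mitochondrial RNAs like SNORA73B (0.94), MIR4461 (0.92) and MIR126 (0.92), the endothelial and platelet marker above, whose part in the MT-RNR2 result was not tested. MT-TF was nearest to SNORD116-29 (0.89), SNORD54 (0.85) and feature 7564 (0.83), and its r with MT-RNR1 was 0.31.

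Of the 10 features most like each member, mitochondrial RNAs with a symbol made up 6 for MT-TL1 and for MT-TM, 3 for MT-RNR2, 2 for MT-RNR1 and for MT-TF, 1 for MT-TI and none for MT-TV. Feature 23560, the repeat of MT-TL1, was a further 1 of the 10 for MT-TL1, where it was the closest (r = 1.00), and for MT-TM (0.94). MT-TL1 and MT-TM were also close to each other (r = 0.94). These values share 8 libraries and their depths and are descriptions of them.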

How the data were processed

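Small RNA libraries of MEC-1 exosomes (5) and cells (3) were compared. The authors deposited 1 table of unnormalized counts for each library, in featureCounts format per the file headers. Builds GRCh37, hg19 and hs37d5 and the tools cutadapt 1.1, STAR, featureCounts and DESeq2 1.8.2 appear in the submitters' processing notes. How strand and reads with several matches, such as nuclear copies of mitochondrial sequence, were handled: not given in the sources used here.

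Counts of all 2709 features were fitted with edgeR 4.0.16's quasi-likelihood test (robust) in R 4.3.3 with TMM factors, the default low-count filter (10 counts) and Benjamini-Hochberg adjustment over 1178 features; calls are at an adjusted p under 0.05. SE is the log2 fold change over the root of F. Ratios of counts used a pseudocount of 0.5 and exact two-sided permutation tests over libraries (scipy 1.17.1). Scripts were tested on simulated data. For the edgeR fit, 3 of 92 simulated 2-fold changes and 89 of 105 simulated 8-fold changes were called in the right direction. A change near 2-fold that was not called is therefore not shown to be absent. Alternatives used DESeq2 1.42.0, limma 3.58.1, other scalings and filters, and fewer libraries. No source names molecular identifiers. The members, lists, tests and the rule for named genes (all 7 members, other mitochondrial RNAs called, and the 3 features most like MT-RNR1, MT-RNR2 and MT-TF) were chosen with earlier results of these data known.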

Additional observations from a re-analysis of the deposited data

Results flagged for a closer look

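The share of mitochondrial RNA reads taken by MT-TI stood apart in exosome 1, at 0.86%, against 0.0988% to 0.257% in the other exosome libraries. The gap to the nearest library was 0.792 of the group's range, above the 0.71 that Dixon's criterion sets for 5 values. It was 1 of 20 sets of exosome values examined, and chance alone flags about 1 in 20. In CPM, MT-TI in exosome 1 (90.4) was close to exosome 3 (85.8).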

How the results depend on the processing

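The number of mitochondrial RNAs called, 5 with all 8 libraries, was 1 with scaling to mitochondrial reads (MT-TF, lower), 8 with upper-quartile scaling and without the large rRNA features, 9 with DESeq2, 10 without the low-count filter and with at least 50 counts in 3 libraries, 8 in replicates 1 to 3 without the block, and 0 without exosomes 2 and 3 together (edgeR; 1 at an unadjusted p under 0.05, against 7 with all libraries; DESeq2 was not run there); with 1 library left out it ran from 1 (without cell 1) to 11 (without cell 3), with 2 without exosome 2 or cell 2. The number of all features called (504) stayed within 1.5 times under the alternatives run, from 357 to 588. The share of all tested features called was 42.8% with all 8 libraries, 34.0% with scaling to mitochondrial reads and 43.5% with upper-quartile scaling. It was 44.3% without the large rRNA features, 48.3% with DESeq2, 27.2% without the low-count filter and 49.9% with at least 50 counts in 3 libraries. With fewer libraries it was 36.1% in replicates 1 to 3 without the block, 32.3% with the replicate block and 41.6% without exosomes 2 and 3. It was 42.2% without exosome 2, 34.4% without cell 1, 35.4% without cell 2 and 33.0% without cell 3. Over all features, the median log2 value was -0.09 with TMM (241 called higher, 263 lower), 0.19 by total counts, 0.25 by upper quartile and -0.86 by mitochondrial reads (90 higher, 311 lower). MT-RNR2 was called in 16 of 21 alternatives, and the direction of each member held in all of them except MT-TV by mitochondrial reads (-0.011). The log2 ratio difference of MT-TM over MT-TI (0.22) ran from -0.25 to 0.80 with 1 library left out, and was negative without exosome 2 (-0.23), exosome 3 (-0.25) or cell 2 (-0.11) and without exosomes 2 and 3 (-1.01); that of MT-TI over MT-TL1 (-0.30) was 0.041 without exosome 3 and 0.49 without exosomes 2 and 3, with a range of -0.78 to 0.041; the cause was not tested. Whether replicate numbers mark the 3 matching samples is not stated; deviations of same-numbered libraries correlated at 0.10, -0.08 and 0.16. With the replicate block on replicates 1 to 3, 357 features and 7 mitochondrial RNAs were called, MT-TL1 (log2 2.05) and MT-TM (2.40) among them; the same libraries without the block also gave these calls (2.31 and 2.59), and MT-RNR1 was called without the block (adjusted p = 0.0342) and not with it (0.0526). Not every library correlated best with its own number. The lowest count of the 7 in any library was 336 (MT-TI, cell 2).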

Other observations

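Of 2370 mature miRNA names in the RefSeq table (GRCh38.p14), 3 have their whole sequence within one of the 7 RNAs, on the same strand. They are shown with the seed (bases 2 to 8) in capitals, because reads of these letters cannot be placed by sequence alone.
hsa-miR-4284 (gene on chromosome 7, bases 49 to 66 of MT-TF): gGGCUCACaucaccccau
hsa-miR-4485-3p (chromosome 11, bases 893 to 912 of MT-RNR2): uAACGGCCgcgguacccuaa
hsa-miR-1973 (chromosome 4, bases 912 to 930 of MT-RNR2): aCCGUGCAaagguagcaua
The last base of the miR-4485-3p match and the first of the miR-1973 match are the same base of MT-RNR2. MIR4284 had 1, 1, 1, 0 and 0 counts in exosomes 1 to 5 and 0 in each cell library, while MT-TF had 32210 to 219955 counts in exosomes and 84309 to 211628 in cells. MIR4485 and MIR1973 were not analysed here.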
